A study of Homo sapiens with 15 samples.

Results

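The chromatin contacts described here are the H3K27ac loops of LNCaP cells at 4 h of dihydrotestosterone (DHT) set against the same loops at 30 m. LNCaP is an established prostate cancer cell line that responds to androgen. The cells had been kept for 3 days in medium with 10% charcoal-stripped serum, which is low in steroids, and then received 10 nM DHT for 30 m or for 4 h. Cells given the ethanol vehicle (0 m) and cells given 10 nM DHT for 16 h or 72 h shared the same deprivation and are used beside the comparison. All contacts came from this single cell line. The members are the 296326 loops of the H3K27ac set, each pair of anchors taken once, of 505995 different loops called for H3K27ac or H3K4me3, and the same loop was read in each table. The question the comparison addresses is which contacts gained in the first minutes of androgen were still there at 4 h.

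Acetylation of lysine 27 of histone H3 marks active promoters and enhancers. HiChIP ligates DNA ends that touch in fixed nuclei, enriches with an antibody the ligated fragments that carry a chosen mark, and sequences them from both ends, so that contact frequency counts read pairs that link a marked site to another site. DHT binds the androgen receptor, which then enters the nucleus and binds androgen response elements, many of them in enhancers that lie far from the promoters they act on. A change in H3K27ac contact can come from more acetylation at an anchor as well as from more contact between the anchors, and the values here cannot tell these apart.

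Contact is the deposited signal, scaled by the authors among the time points of a mark. For H3K27ac, 1 value was deposited per loop and time point although 2 replicates of each are labelled, and neither the labels nor the methods say whether both entered it. No value below therefore has a replicate error, no test between replicates was possible, and the time in DHT and the library it was read from cannot be told apart. The values were whole multiples of a step in 100% of loops, which is the contact of 1 read pair, 0.180 at 30 m and 0.214 at 4 h. From these steps 3426705 read pairs were recovered in the loops at 30 m and 2880426 at 4 h, with a median of 5 read pairs per loop at both. The 95% intervals given below are exact intervals of a ratio of counts or of a share, they treat each read pair as independent, and they cover counting error only. Log2 changes are the log2 ratio of summed contact at 4 h to that at 30 m, and a loop or promoter is called higher or lower by a fold and a minimum of read pairs that are stated with each count. Of the genes taken as marks of androgen-responsive luminal prostate cells, KLK3, KLK2, FKBP5 and SLC45A3 had loops with contact at every time point. TMPRSS2 had 3 loops, with summed contacts of 1.47, 3.42, 2.14, 2.33 and 1.32 from 0 m to 72 h, too few to describe. Loops give contact and not expression, so they do not show the level of these genes.

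The sequences that follow show anchors of loops that stood at the ends of the comparison, as examples of the DNA behind the base composition described next. A single anchor need not follow the average of its kind. Each is a stretch of 150 bases of the GRCh37 plus strand, the build of the loop calls, taken as near as possible to the middle of the anchor and outside annotated exons, with CG dinucleotides in capitals. The first comes from the long loop with the clearest lower contact at 4 h, which joins CDK4, the kinase partner of cyclin D, to the promoter region of METTL1 and EEF1AKMT3. The stretch, at chr12:58147426-58147575, lies in a CDK4 intron by the annotation used, in which the outermost start of CDK4 is at chr12:58149796. The 1 kb anchors of this loop hold 4 CG dinucleotides at CDK4 and 25 at the other end, and the stretch shown, at the CDK4 end, is itself AT-rich, with no CG.
CDK4 anchor: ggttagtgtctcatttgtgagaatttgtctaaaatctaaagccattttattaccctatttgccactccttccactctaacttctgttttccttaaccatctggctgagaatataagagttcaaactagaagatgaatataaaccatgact

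The next pair comes from the loop between EGR1, an immediate early transcription factor, and a site 25 kb away. It also had lower contact at 4 h. The stretches lie in the EGR1 intron at chr5:137802296-137802445 and between genes at chr5:137827426-137827575, in anchors with 51 and 79 CG dinucleotides.
EGR1 anchor: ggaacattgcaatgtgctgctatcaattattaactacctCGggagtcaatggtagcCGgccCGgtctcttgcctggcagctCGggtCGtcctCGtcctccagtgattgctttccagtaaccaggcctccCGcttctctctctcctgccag
distal anchor: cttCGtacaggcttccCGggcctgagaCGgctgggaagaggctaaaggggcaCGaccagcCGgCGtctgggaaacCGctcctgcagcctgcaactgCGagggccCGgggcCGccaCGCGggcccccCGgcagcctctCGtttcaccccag

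A further pair comes from the long loop with the clearest higher contact at 4 h, inside an intron of NAALADL2 on chromosome 3, at chr3:175107426-175107575 and chr3:175207426-175207575. Its anchors hold 3 and 5 CG dinucleotides.
NAALADL2 first anchor: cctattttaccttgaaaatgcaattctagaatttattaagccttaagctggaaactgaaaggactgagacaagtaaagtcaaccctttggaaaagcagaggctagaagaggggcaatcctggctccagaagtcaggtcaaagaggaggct
NAALADL2 second anchor: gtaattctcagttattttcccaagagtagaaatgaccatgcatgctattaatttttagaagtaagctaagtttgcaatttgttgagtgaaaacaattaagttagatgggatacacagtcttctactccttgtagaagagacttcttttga

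The last pair is the loop between the promoter of KLK3, the gene of prostate-specific antigen, and a site upstream of it that lies in a noncoding RNA gene, at chr19:51352426-51352575 and chr19:51357426-51357575. It had higher contact at 4 h although its anchors, with 15 and 13 CG dinucleotides, lie above the median of 9 found over 143646 anchors.
KLK3 upstream anchor: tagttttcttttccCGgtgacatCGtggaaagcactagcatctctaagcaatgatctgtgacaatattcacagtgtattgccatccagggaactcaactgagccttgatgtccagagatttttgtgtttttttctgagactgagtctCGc
KLK3 promoter anchor: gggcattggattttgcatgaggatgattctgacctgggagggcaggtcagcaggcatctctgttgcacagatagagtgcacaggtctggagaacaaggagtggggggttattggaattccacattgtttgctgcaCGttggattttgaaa

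Between 30 m and 4 h the total of H3K27ac contact hardly moved while its place on the genome did. Summed over each kind, loops that touched a promoter, and above all loops between promoters, had less contact at 4 h, and loops with no promoter at either end had more. With no promoter or with 1, the direction differed between GC classes, as given further on. Mean contact per loop was 2.08 at both 30 m and 4 h, a log2 change of -0.00. The 180060 loops with no anchor at a protein-coding promoter had a mean contact of 1.97 (0 m), 1.84 (30 m) and 2.11 (4 h). The 97932 loops with 1 promoter anchor had 1.89, 2.28 and 1.93 at the same times. The 18334 loops with a promoter at both ends had 2.41, 3.35 and 2.497. From 30 m to 4 h these are log2 changes of 0.20 (95% interval 0.19 to 0.20) with no promoter, -0.24 (-0.24 to -0.24) with 1 and -0.43 (-0.43 to -0.42) with 2. In all these classes the value at 4 h lay within 0.10 on the log2 scale of that at 0 m. In loops with 1 or 2 promoters 30 m stood apart from both, by 0.27 and 0.48 above 0 m, while in loops with none 0 m lay midway between 30 m, at -0.10, and 4 h, at 0.10. At 16 h the loops between promoters again had a mean contact of 3.32, close to the value at 30 m, and at 72 h they had 3.20. Mean contact over all loops was also higher then, at 2.41 at 16 h and 2.26 at 72 h.

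The GC content of the 5 kb bins around the anchors separated the loops more widely than promoters did. The loops were split by it into 5 GC classes of about equal size. In the lowest class, under 39.8%, mean contact was 1.85 at 0 m, 1.22 at 30 m and 1.82 at 4 h, a log2 change of 0.58 (0.57 to 0.58) from 30 m to 4 h. In the highest class, 50.2% or more, it was 2.47, 3.27 and 2.73, a log2 change of -0.26 (-0.26 to -0.25). The classes in between had log2 changes of 0.20, -0.03 and -0.18, in order of rising GC content. The AT-rich class was lowest at 30 m, and its mean contact was 1.86 at 16 h and 1.69 at 72 h, the latter a log2 change of -0.13 (-0.13 to -0.12) from 0 m.

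**Figure D1:**
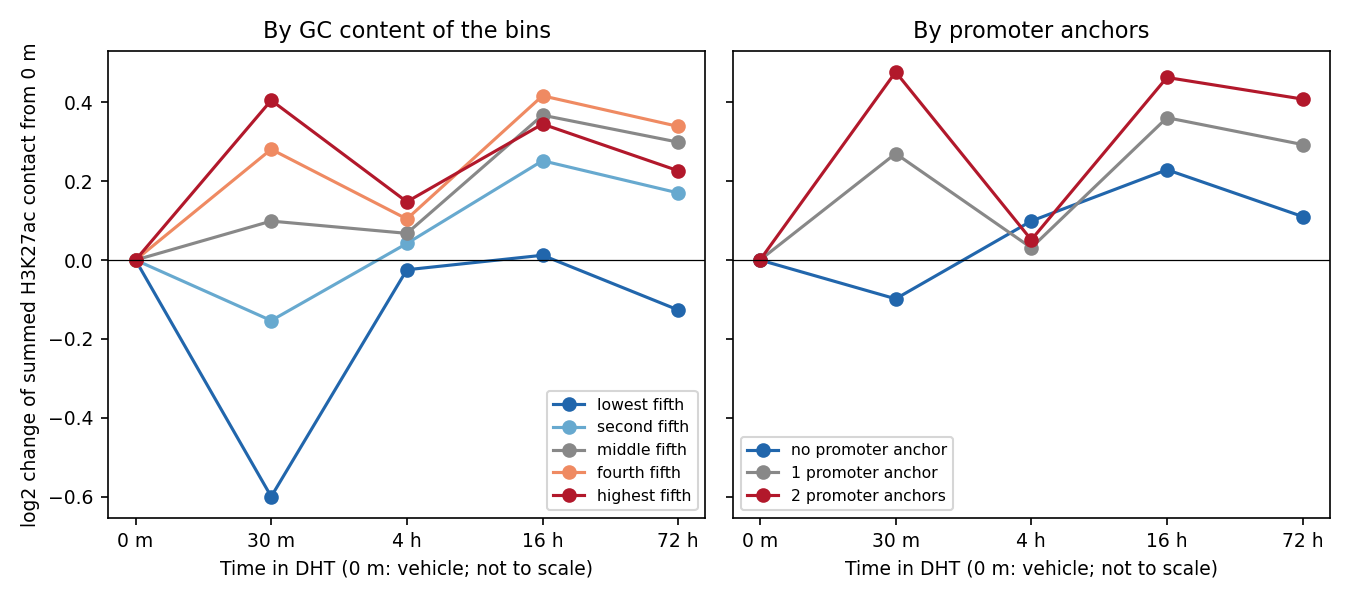
Log2 change of summed H3K27ac contact from 0 m (y axis) at the 5 time points of DHT (x axis, not to scale), with loops split by GC class in one panel and by the number of promoter anchors in the other. The GC classes spread apart at 30 m, from -0.60 in the lowest to 0.40 in the highest GC class, and came back within 0.15 of 0 at 4 h.

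Promoter anchors and GC content both went with the change, each within classes of the other. Among loops with no promoter anchor the log2 change went from 0.62 in the lowest GC class to -0.03 and -0.09 in the upper pair of classes, where it was below 0. Among loops with 1 promoter it was above 0 in the lowest class, at 0.17 (0.15 to 0.19), and went from -0.06 to -0.32 over the others. Among loops between promoters it went from -0.15 to -0.45. Within each of the 5 GC classes the loops with no promoter had the highest log2 change and those between promoters the lowest, and the gap between them narrowed from 0.77 in the lowest class to 0.36 in the highest. H3K4me3 contact of the same loops, read from separate libraries, had log2 changes of 0.17, 0.24 and 0.29 for 0, 1 and 2 promoter anchors and of 0.18 to 0.24 across the GC classes, and so ordered the loops the other way. The H3K4me3 library of 4 h was by far the deepest, with 6726710 read pairs in these loops against 1327128 at 30 m, and the part of depth in its values was not tested. A difference in GC content between libraries was not tested as a cause of the H3K27ac pattern, and with 1 value per time point it cannot be told apart from the time in DHT.

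**Figure D2:**
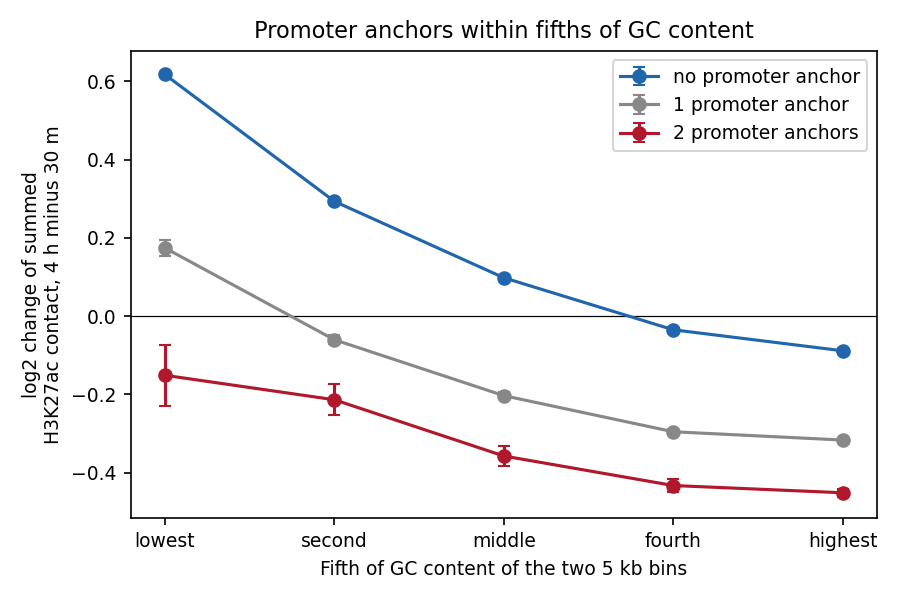
Log2 change of summed H3K27ac contact at 4 h against 30 m (y axis) by class of GC content of the bins of a loop (x axis, lowest to highest), for loops with 0, 1 or 2 promoter anchors, with 95% counting intervals as bars. The lines do not cross: loops with no promoter run from 0.62 to -0.09 and loops between promoters from -0.15 to -0.45.

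The log2 change of summed contact was higher in loops of 100 kb and over than in shorter ones. It was between -0.07 and -0.01 in the classes under 100 kb, 0.06 at 100 to 200 kb, 0.08 at 200 to 500 kb, 0.17 at 500 kb to 1 Mb and 0.24 at 1 Mb and over. Among loops with no promoter anchor it was 0.14 in the classes under 50 kb and reached 0.57 at 1 Mb and over. Single loops with at least 30 read pairs had another order. Their median log2 change was -0.19 at 20 kb and over, with 9.83% lower and 5.31% higher by 2-fold. Under 20 kb it was 0.07, with 2.82% lower and 6.89% higher. Loops were also split by strength, read from the mean of 16 h and 72 h, which are outside the comparison. The 6068 strongest loops, with a contact of 16 or more, went from 25.4 at 30 m to 21.4 at 4 h, a log2 change of -0.25. The 160059 weakest, with a contact under 1, went from 0.663 to 0.778, a log2 change of 0.23. The gap between them, -0.48, was -0.27 with strength read at 0 m. The 68822 loops that were also called for H3K4me3 had a log2 change of -0.25, against 0.11 for the 227504 called for H3K27ac alone. By chromosome, the log2 change was lowest on chromosome 19, at -0.34, where the bins of loops averaged 52.2% GC, and highest on chromosome 13, at 0.27, where they averaged 42.2%.

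The androgen response element is a pair of 6-letter arms, AGAACA and TGTTCT, with any 3 bases between them, and reads the same on both strands. It was searched in the 5 kb bins with at most 1 mismatch, and 2.59% of 143648 bins held it. The 14937 loops with such a bin had a mean contact of 1.94 at 0 m, 1.93 at 30 m and 2.06 at 4 h, a log2 change of 0.09 (0.08 to 0.10) from 30 m to 4 h, against -0.01 in loops without it. Within GC classes the gap between loops with and without the element was -0.02 in the lowest and 0.04 to 0.07 in the others, so it was small beside the gaps by promoter and GC content, and in AT-rich loops it lay within counting error. A match of letters does not show that the receptor bound there.

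Single loops were counted where they had at least 30 read pairs over 30 m and 4 h, which 46756 loops did. Of these, 2564, or 5.48%, had contact at least 2-fold lower at 4 h (5.28 to 5.69%), and 2940, or 6.29%, at least 2-fold higher (6.07 to 6.51%). The balance turned with the choice of loops, to 3.63% lower and 1.61% higher with at least 100 read pairs and to 9.83% and 5.31% in loops of at least 20 kb. Against that background, 13.4% of the loops between promoters and 9.02% of those with 1 promoter were lower, and 2.46% of those with none. The shares of higher loops ran the other way, 0.703%, 1.86% and 9.44%. By GC content, 0.737% of the loops in the lowest GC class and 8.91% of those in the highest were lower, and 19.9% and 2.19% were higher.

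The lower and higher loops were different kinds of contact. The lower loops had mean contacts of 4.68, 8.96, 3.80, 9.41 and 8.73 from 0 m to 72 h, 73.2% of them touched a promoter, their median length was 30 kb and 54.6% were also H3K4me3 loops. The higher loops had 5.68, 2.97, 7.30, 5.04 and 4.27 at the same times, 10.3% touched a promoter and their median length was 5 kb. Of all loops counted, 40.3% touched a promoter, the median length was 10 kb and 33.0% were also H3K4me3 loops. A 1 kb anchor of the lower loops held a median of 22 CG dinucleotides and one of the higher loops 8, against 14 over all loops counted. For the lower loops contact at 16 h and 72 h was back at the level of 30 m, while for the higher loops it lay between the values of 30 m and 4 h. Mean contact over all loops counted was 6.82, 8.19, 7.72, 10.03 and 8.92 from 0 m to 72 h, so it also rose after 4 h.

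Of 1171 loops of at least 20 kb with at least 100 read pairs, those with the clearest change are named, ranked by the end of the counting interval nearest to 0. All 10 of the lower loops but 1 touched a promoter and 4 joined a pair of promoters. The loop between CDK4 and METTL1 (chr12:58147001-58148000 and chr12:58167001-58168000), whose CDK4 anchor is shown above, had contacts of 8.52, 26.3, 7.91, 19.3 and 20.3 from 0 m to 72 h. It rested on 146 read pairs at 30 m and 37 at 4 h, a log2 change of -1.73 (-2.29 to -1.20). Contact was thus about the same at 0 m and 4 h and high at the other times, and H3K4me3 contact of this loop was 37.2 at 30 m and 68.5 at 4 h.

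The other 9 lower loops also had less contact at 0 m than at 30 m, which the ranking by 4 h against 30 m in part sets. The loop from BICRA, a subunit of SWI/SNF remodelling complexes, into its own gene had 5.00, 16.0, 4.70, 16.6 and 13.4. The loop between the promoters of EME1 and MRPL27 and that of LRRC59 had 4.70, 15.8, 4.70, 8.49 and 12.9. The loop from HES4 and ISG15 to AGRN, the gene of the matrix protein agrin, had 6.46, 19.6, 6.41, 11.7 and 12.4. Those at ALDH16A1 and RPL13A, GTF2I, YWHAZ and ZNF706, MTIF3, LRRC10B and TLE5 completed the set. Furthest below 0 m at 4 h were the loops at MTIF3, with 8.82 and 5.56, and at YWHAZ and ZNF706, with 9.70 and 7.48. They rested on 26 and 35 read pairs at 4 h, so counting error is large. All 10 had log2 changes between -1.80 and -1.34, and all 10 had more contact at 16 h and at 72 h than at 4 h. The GC content of their bins lay between 44.8% and 66.9%.

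None of the 10 higher loops touched a promoter. The first, inside NAALADL2 (chr3:175107001-175108000 and chr3:175207001-175208000), had contacts of 41.4, 10.8, 36.8, 14.2 and 13.2 from 0 m to 72 h, with 60 read pairs at 30 m and 172 at 4 h, a log2 change of 1.77 (1.33 to 2.22). It was a strong contact in vehicle and at 4 h and weak at the other times. It was also the only one of the 20 named loops with an androgen response element in a bin. Of the rest, 3 lay within MIPOL1 on chromosome 14, the gene that neighbours FOXA1, and the clearest of them (chr14:37717001-37718000 and chr14:37887001-37888000) had 21.7, 8.46, 27.6, 18.0 and 16.8. Another 4 lay on chromosome 8, 3 of them within CNBD1, and the others stood between genes, near USP25 on chromosome 21 and near LRRC4C on chromosome 11. These 10 loops spanned 75 to 265 kb, their bins held 33.6% to 38.3% GC, and their H3K4me3 contact was at most 3.87 at any time. All 10 had less contact at 16 h than at 4 h. Since several share an anchor or a gene, they are not independent of each other.

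The early gains were then followed to 4 h. Over 63291 loops with at least 30 read pairs over 0 m, 30 m and 4 h, 6327, or 10.0%, had contact at least 2-fold higher at 30 m than at 0 m, and 4681, or 7.40%, at least 2-fold lower. In the same loops 6.37% were at least 2-fold lower at 4 h than at 30 m and 8.31% at least 2-fold higher. A gain was called transient where contact at 4 h was at least 2-fold below that at 30 m, and kept where it was not but was still at least 2-fold above 0 m. The value at 30 m enters both steps, so that a value that is high by counting error alone would count as a gain and then as transient.

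By this rule 1432 gains, or 22.6% (21.6 to 23.7%), were transient, 2081, or 32.9% (31.7 to 34.1%), were kept, and 2814 lay between. Among the losses the mirror shares were 54.7% (53.2 to 56.1%) that returned, 2559 loops, and 10.7% that stayed low, 501 loops. These intervals treat loops as independent and leave out the counting error of the value at 30 m that both steps share, so the shares of gains and losses are given as a description and not compared. The kept gains were mostly weak contacts, and with a minimum of 100 read pairs their share was 11.5%, against 22.2% transient.

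Transient and kept gains differed in where they lay. The transient gains had mean contacts of 3.48, 9.002, 3.72, 9.61 and 8.85 from 0 m to 72 h, high at 30 m, low at 4 h and high again later. Of them 73.9% touched a promoter, their bins averaged 50.1% GC and their median length was 30 kb. The kept gains had 1.68, 4.71, 4.61, 4.69 and 4.37, 42.6% touched a promoter, their bins averaged 47.3% GC and their median length was 15 kb. Of all 63291 loops followed, 39.7% touched a promoter, their bins averaged 46.15% GC and their median length was 15 kb, near the kept gains. Their mean contacts were 5.77, 6.66, 6.37, 8.07 and 7.24 from 0 m to 72 h. Transient is a word for the first 4 h only, since 805 of the transient gains, or 56.2%, were again at least 2-fold above 0 m at 16 h and 768, or 53.6%, at 72 h. The share at 16 h was 65.2% for the kept gains and 57.2% for all early gains. Over all 63291 loops followed it was 15.5% at 16 h and 13.0% at 72 h. Gains were chosen for a low value at 0 m, which is also the reference at 16 h and 72 h. Part of the shares of gains, and of their distance from all loops, is therefore set by the choice. The losses that returned had contacts of 5.79, 1.92, 5.34, 3.98 and 3.32, 9.77% touched a promoter and their bins averaged 39.4% GC.

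The share of gains that were transient went up with promoters and GC content. It was 13.9% of the 2692 gains with no promoter anchor, 27.2% of the 2655 with 1 and 34.3% of the 980 between promoters, while the kept shares were 44.4%, 26.4% and 18.98%. By GC class the transient share went from 7.03% in the lowest to 27.1% in the highest and the kept share from 63.0% to 25.5%. H3K4me3 contact of the transient gains was 7.38 at 0 m, 7.97 at 30 m and 11.5 at 4 h, with no fall at 4 h.

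**Figure D3:**
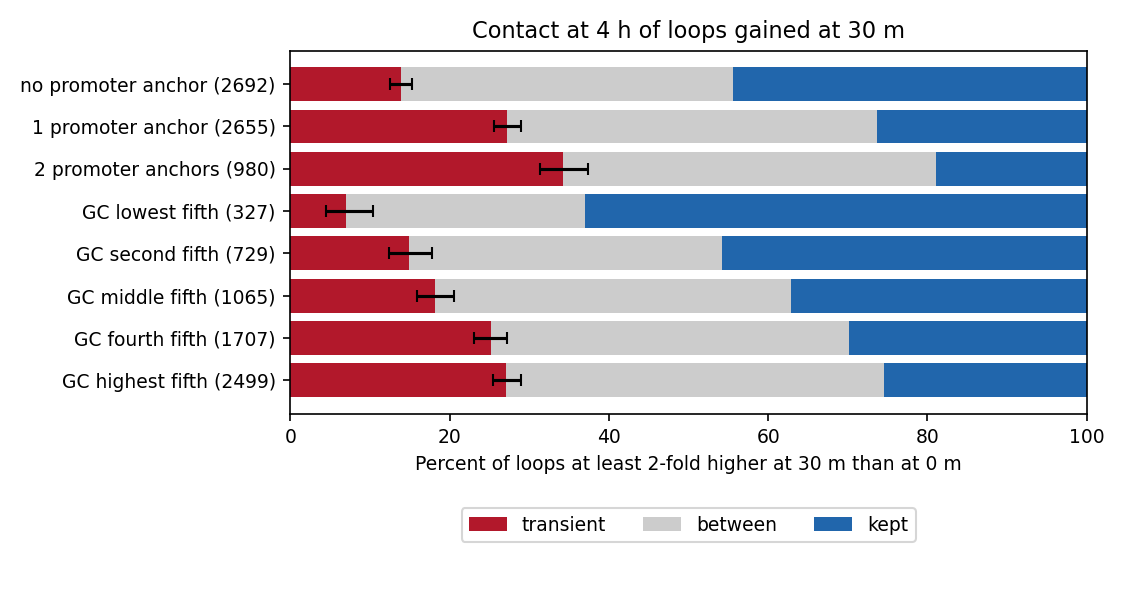
Shares of the loops at least 2-fold higher at 30 m than at 0 m (x axis, percent) that were transient, between or kept at 4 h, by number of promoter anchors and by GC class (rows, from lowest to highest, with the number of loops), with exact 95% intervals of the transient share as bars. Transient gains were 13.9%, 27.2% and 34.3% of the gains with 0, 1 and 2 promoter anchors, and 7.03% in the lowest against 27.1% in the highest GC class.

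For promoters, contact was summed over all loops with an anchor within 2500 bp of the outermost annotated start of a gene. Of 14101 protein-coding genes with loops, 8760 had at least 100 read pairs over 30 m and 4 h. Their median log2 change was -0.28, and 78.3% were below 0. At least 1.5-fold lower contact at 4 h was found for 1608, or 18.4%, and at least 1.5-fold higher for 169, or 1.93%. From 0 m to 30 m the median had been 0.35, and 2174 promoters, or 24.8%, were at least 1.5-fold higher at 30 m. Of these, 1070, or 49.2%, were at least 1.5-fold lower again at 4 h and 213, or 9.80%, were kept at 1.5-fold above 0 m with less than a 1.5-fold fall. Because most promoters went one way, each gene is also given relative to like loops, which are the loops with the same number of promoter anchors, GC class and length class. By that measure 4494 promoters, or 51.3%, were above 0. Promoters that share an anchor share loops, so the counts of genes are not counts of independent contacts.

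The androgen-induced genes were divided at 4 h, with 16 of 30 below their value at 30 m and 14 above it, and with intervals below 0 for 8 and above 0 for 7. Of all 8760 promoters 78.3% were below, with intervals below 0 for 3903 and above 0 for 414. Of 41 listed genes, 35 had loops and 30 of them enough read pairs to be described singly. The log2 change of contact summed over all loops of the 35 genes was 0.25 over the first 30 m and 0.03 (-0.02 to 0.07) from then to 4 h, against -0.28 for all promoters. Relative to like loops it was 0.29, with 20 of the 30 genes above 0. At least 1.5-fold lower contact was found for 2 of them and higher for 3, beside the shares of 18.4% and 1.93% given for all promoters. The median over the genes was -0.03, so the sum and the median differ in sign.

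KLK3 had 1 loop in the set, from its promoter to the site upstream whose sequence is shown above. Its contacts were 30.6, 50.2, 89.7, 96.0 and 32.9 from 0 m to 72 h. It rested on 279 read pairs at 30 m and 420 at 4 h, a log2 change of 0.84 (0.62 to 1.06), or 1.17 above like loops. Its contact was thus higher at 4 h than at 30 m, whereas that of most promoters was lower. KLK2, the neighbouring kallikrein protease gene, had 2 loops with summed contacts of 4.11, 7.74 and 12.4 from 0 m to 4 h, a log2 change of 0.68 (0.09 to 1.28) on 43 and 58 read pairs. These loops were read at the outermost annotated start of KLK2, chr19:51364824. Whether that start is the KLK2 promoter used in these cells was not tested. KLK4, another gene of the cluster, had 57.3, 74.7 and 90.4, a log2 change of 0.28 (0.08 to 0.47).

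UAP1, an enzyme of the hexosamine pathway, followed another course, with 67.3, 47.3, 76.7, 140.3 and 91.8 from 0 m to 72 h. Its log2 change was 0.70 (0.46 to 0.93), and it came after a lower value at 30 m rather than a gain. AMD1, which makes the decarboxylated donor for polyamines, had 146.9, 135.3 and 166.4, a log2 change of 0.30 (0.15 to 0.45). All 28 of its loops share a bin with an androgen response element, printed here as the clearest case of the element at a promoter of the list, at chr6:111198140-111198154 on GRCh37 with 1 mismatch and with the element in capitals.
AMD1 bin: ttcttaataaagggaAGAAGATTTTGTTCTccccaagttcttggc
HERC3 and HOMER2 had log2 changes of 0.32 and 0.36, and SLC45A3, a prostate sugar transporter, had 48.2, 48.6 and 56.6, with an interval of -0.03 to 0.47 that holds 0.

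Other androgen-induced genes gained early and had less contact at 4 h. FKBP5, the chaperone that is a classic target of the receptor, had 74.0, 145.7, 115.8, 136.9 and 93.7 over 23 loops, a log2 change of -0.33 (-0.49 to -0.17) that left it 0.65 above 0 m. Its loop of 5 kb (chr6:35692001-35693000 and chr6:35697001-35698000) carried that change, with 36.4, 91.4 and 63.7. In its loops of at least 20 kb summed contact was 37.6, 54.3 and 52.1, a log2 change of -0.06 (-0.31 to 0.19). ODC1, the first enzyme of polyamine synthesis, gave up most of its gain, with 50.2, 94.3, 54.3, 109.3 and 112.4, a log2 change of -0.80 (-1.02 to -0.58) that left it 0.11 above 0 m. RAB4A was also at least 1.5-fold lower at 4 h, with 12.3, 19.1 and 12.6. GNAI3 had a log2 change of -0.52, which was -0.28 relative to like loops. By the gene rule 6 of the 30 genes had gained at 30 m, beside 24.8% of all promoters. FKBP5, KLK3 and KLK2, the last read at its outermost start, kept their gains. ODC1 and RAB4A were transient, beside 9.80% kept and 49.2% transient of all promoter gains. KRT8 and KRT18 share all their loops and count here as 2 genes.

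Of 9 genes listed as repressed by androgen, 8 had loops and 4 of them enough read pairs. Contact summed over the loops of the 8 genes was lower at 30 m, a log2 change of -0.96 from 0 m, and higher at 4 h than at 30 m, by 0.72 (0.59 to 0.85). The median over the 4 genes was 0.38, and the sum rests mostly on BCHE. This gene of the cholinesterase of serum had 104.9, 23.8, 82.7, 47.6 and 36.6 over 48 loops from 0 m to 72 h. On 132 and 387 read pairs its log2 change was 1.80 (1.51 to 2.10), the highest of all 8760 promoters, and 1.49 relative to like loops, and its bins averaged 34.5% GC. UGT2B15, which conjugates androgens for removal, had 70.8, 39.4, 66.5, 50.7 and 39.5, a log2 change of 0.75 (0.50 to 1.01). Both had less contact at 30 m than at 0 m, more at 4 h and less again at 72 h, and BCHE at 4 h was still 0.34 below 0 m on the log2 scale. CAMK2N1 had 65.5 at 30 m and 65.6 at 4 h.

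**Figure D4:**
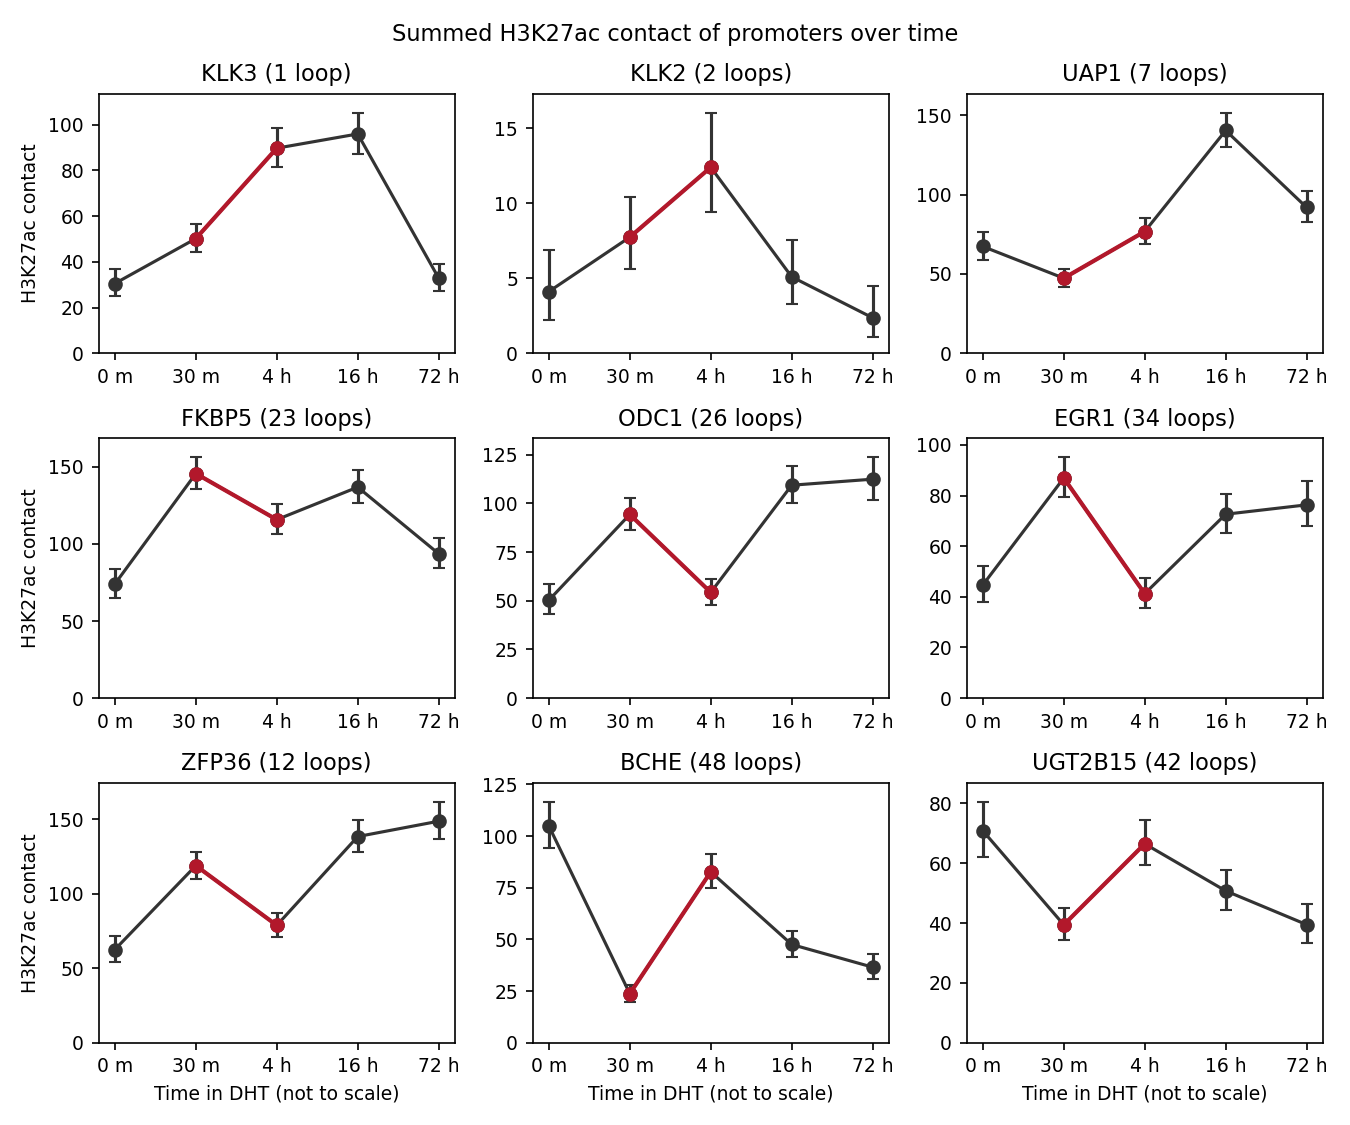
Summed H3K27ac contact of 9 promoters (y axis, own scale in each panel, from 0) at the 5 time points (x axis, not to scale), with exact 95% counting intervals and the step from 30 m to 4 h in red. KLK3 went from 50.2 to 89.7 in that step, EGR1 from 86.9 to 41.2 and BCHE from 23.8 to 82.7.

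Immediate early genes, which are switched on within minutes of a signal without new protein, divided. Of 25 listed, 22 had loops and 14 of them enough read pairs. Summed over the loops of the 22, the log2 change was 0.34 from 0 m to 30 m and -0.26 (-0.32 to -0.19) from 30 m to 4 h. The median over the genes was 0.09 and the sum relative to like loops 0.08, so both differ in sign from the sum. Of the 14 genes 5 had intervals below 0 and 3 above, beside 3903 and 414 of all 8760 promoters. EGR1 had 44.7, 86.9, 41.2, 72.6 and 76.3 over 34 loops, a log2 change of -1.08 (-1.32 to -0.83), with 483 read pairs at 30 m and 193 at 4 h. Its loop to the site 25 kb away, shown above, had 9.11, 16.0 and 7.05. ZFP36, which speeds the decay of messenger RNA of other early genes, had 62.6, 118.9, 78.8, 138.4 and 148.7, a log2 change of -0.59 (-0.78 to -0.41). IER2 and JUND, at -0.52 and -0.48, also had intervals below 0. NR4A1, an orphan nuclear receptor, had 28.1 at 30 m and 37.6 at 4 h, a log2 change of 0.42 (0.10 to 0.74), and ATF3 had 13.1 and 18.4, a log2 change of 0.48 (0.02 to 0.95). JUN had 89.8 and 102.1, a log2 change of 0.19. At least 1.5-fold lower contact was found for 2 of the 14 and higher for none, beside 18.4% and 1.93% of all promoters, so the count is near the background.

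Among 8 transcription factors of luminal prostate cells with enough read pairs, 1 was at least 1.5-fold lower and none higher, near the background of 18.4% and 1.93%, with a summed log2 change of -0.15 (-0.21 to -0.09) and of 0.14 relative to like loops. The lower one was XBP1, a factor of secretory cells, with 147.5, 209.4, 138.7, 294.9 and 324.2, a log2 change of -0.59 (-0.74 to -0.46). GATA2 and ELF3 were both at -0.38. FOXA1, the pioneer factor of the androgen receptor, had 228.0, 192.0, 182.3, 388.5 and 344.2 over 42 loops, a log2 change of -0.08 (-0.21 to 0.06). Opposite changes lay under this sum. Its 5 kb loop had 61.4, 78.6 and 47.6 from 0 m to 4 h, a log2 change of -0.72 (-0.96 to -0.49), and its loops of at least 20 kb together had 166.6, 113.4 and 134.6, a log2 change of 0.25 (0.09 to 0.41). HOXB13 had 135.9 and 140.4, a log2 change of 0.05. SPDEF and EHF, factors of the ETS family, had 0.26 and 0.29, with intervals above 0.

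The 4 lists of general cell functions had summed log2 changes between -0.56 and -0.42, below the -0.28 of all promoters, each summed over all genes with loops. Beside their counts stand 18.4% of all promoters at least 1.5-fold lower, 1.93% higher and 51.3% above like loops. Of 9 coregulators of the androgen receptor, 3 were at least 1.5-fold lower and none higher. These were MED1, a Mediator subunit, with 64.9, 96.1 and 53.4 and a log2 change of -0.85 (-1.07 to -0.63), the methyltransferase gene KMT2D at -0.67 and CARM1 at -0.63. Relative to like loops 5 of the 9 were above 0, and the sum was at -0.12. For sterol and fatty acid synthesis all 15 genes were below 0, beside 78.3% of all promoters, 4 of them at least 1.5-fold, and 2 were above like loops. Among these were CYP51A1, a demethylase of the sterol pathway, with 47.3, 62.6, 38.2, 64.3 and 67.4 from 0 m to 72 h and a log2 change of -0.71 (-0.98 to -0.45), and SREBF2 and FDPS at -0.66 and -0.64, while FASN, which makes fatty acids, was at -0.08 with an interval of -0.23 to 0.07.

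Of 14 genes of the unfolded protein response, 3 were at least 1.5-fold lower and none higher, which is near the 18.4% of all promoters, and 5 were above like loops, against 51.3%. The 3 lower genes were CANX, an endoplasmic reticulum chaperone, with 57.0, 116.1 and 75.2, DDIT3 at -0.59 and XBP1, which also stands in the luminal list. SEL1L, of the degradation machinery of the endoplasmic reticulum, went from 12.6 to 18.6, a log2 change of 0.56 (0.09 to 1.04). Of 12 genes of the cell cycle and DNA replication, 6 were at least 1.5-fold lower and none higher, against 18.4% and 1.93%. Summed over the 19 genes of the list with loops, the log2 change was -0.56 (-0.64 to -0.49), the lowest of the lists, and -0.20 relative to like loops. CDK4 had 49.7, 86.7, 46.1, 70.7 and 66.3, a log2 change of -0.91 (-1.15 to -0.68). CCNB1, the mitotic cyclin, was at -0.85 and CCND1, its G1 counterpart, at -0.77. In the rule for promoter gains 9 of the 12 had gained at 30 m, against 24.8% of all promoters. Of these, CCNB1, CCND1, CDC6, CDK4 and MCM7 were transient and MCM2 was kept, beside 49.2% and 9.80% of all promoter gains.

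**Figure D5:**
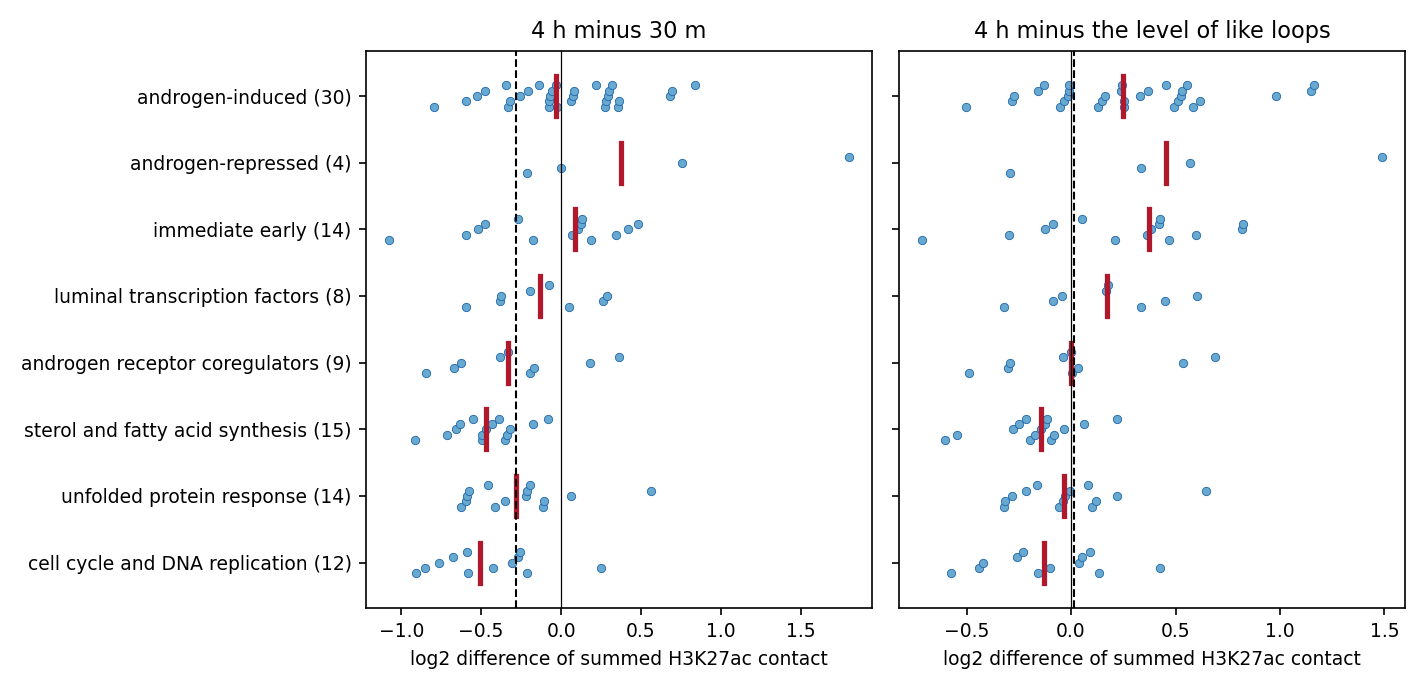
Log2 difference of summed H3K27ac contact (x axis) of each gene with at least 100 read pairs (points) by list (rows, number of genes), at 4 h against 30 m in one panel and relative to like loops in the other, with the median of a list as a red bar and that of all 8760 promoters as a dashed line. Androgen-induced genes lie on both sides of 0 at 4 h against 30 m, with KLK3 at 0.84 and ODC1 at -0.80, while all 15 genes of sterol and fatty acid synthesis lie below 0, as do 78.3% of all promoters.

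The study had grouped upregulated genes by the time point of their highest nascent transcription, from its own sequencing of capped nascent RNA, so a gene of a late class may have responded earlier. The summed contact of these classes had changes near that of all promoters. The summed log2 change at 4 h against 30 m was -0.26 (-0.31 to -0.21) for the 51 genes with loops of the 30 m class, -0.31 (-0.34 to -0.27) for the 80 of the 4 h class, -0.27 for the 168 of the 16 h class and -0.33 for the 112 of the 72 h class. Relative to like loops these became 0.04, 0.01, 0.04 and -0.00. At least 1.5-fold lower contact was found for 5 of 28, 9 of 48, 16 of 102 and 14 of 67 genes with enough read pairs, which is near the 18.4% of all promoters, and at least 1.5-fold higher contact for 0, 4, 3 and 0, beside 1.93%. The 4 h class, with 4 of its 48 genes higher, had a median over genes of -0.17, closer to 0 than its sum.

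Among 871 promoters with at least 500 read pairs in loops of at least 20 kb the median log2 change was -0.46, and those at the ends are named by the same rank as the loops. The lower end held ALDH16A1, with 50.8, 106.0 and 45.3 from 0 m to 4 h in these long loops and a log2 change of -1.23 (-1.46 to -0.9975). It was followed by TCF3, an E-protein transcription factor, at -1.14, HES4 at -1.15, WAC at -1.10, CDK4 at -1.07, EGR1 at -1.06 and the checkpoint kinase gene CHEK2 at -1.03. ZNF791, HAPSTR1 and an unnamed gene on chromosome 9 (ENSG00000288699) were between -1.04 and -0.99. All 10 had been higher at 30 m than at 0 m, which the ranking by 4 h against 30 m in part sets.

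The higher end held GULP1, an adaptor of cell engulfment, with 294.1, 137.7, 239.1, 179.8 and 193.9 over 87 long loops and a log2 change of 0.80 (0.66 to 0.93). HGD, of tyrosine breakdown, had 157.8, 71.4 and 109.2, a log2 change of 0.61. CYB5B, SGMS1 and EPB41L4B were at 0.46, 0.45 and 0.42, and NDUFB4, AMD1, NRP1 and ZNF608 between 0.30 and 0.38. FOLH1, the gene of prostate-specific membrane antigen, which is repressed by androgen, had 87.0, 46.6, 61.1, 73.7 and 63.9, a log2 change of 0.39 (0.14 to 0.64). All 10 had less contact at 30 m than at 0 m and more again at 4 h. Since they were ranked by 4 h against 30 m, a low value at 30 m is in part set by the choice. EPB41L4B and AMD1 were the 2 whose contact at 4 h lay above that at 0 m, by 0.22 and 0.09 on the log2 scale.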

How the data were processed

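HiChIP reads were trimmed with Trim Galore 0.5.0 and aligned to hg19 with Bowtie2 in HiC-Pro 3.1.0, by the submitters' processing notes. By the methods of the study, loops were called in 5 kb bins on read pairs merged over the time points of each mark. The deposited values are a contact signal that the authors scaled among time points by TMM, 1 per loop and time point. No column of comparisons was used. Read pairs were recovered from the step of each table, within a tolerance of 0.01 of a read pair, and rows were matched by their loop name. Promoters reached 2500 bp on either side of protein-coding starts in Gencode 44 lifted to GRCh37, and an anchor of 1 kb had to overlap them. Each start was the outermost of its gene, which need not be the one used in these cells. Intervals were checked on simulated data.

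Named loops had at least 100 read pairs and 20 kb, 10 in each direction by the end of the counting interval nearest 0, without a second loop within 10 kb at both anchors. Named genes had at least 500 read pairs in such loops, without a second gene sharing most of its loops. List members with at least 100 read pairs could be named. Members and lists were chosen with earlier results of these data known. The nascent classes came from the study's own sequencing. Values were computed in Python 3.11.15 (scipy 1.17.1, pandas 2.3.3, numpy 2.4.6). Some items are not reported here.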

Additional observations from a re-analysis of the deposited data

How the results depend on the processing

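No paired analysis was possible because the tables hold 1 value per time point and carry no replicate numbers, and no result comes from a test. Of 110 alternative values over 23 results, 58 stayed within the limits set for them, 44 moved and 8 changed sign. Comparisons within GC classes or with like loops, and those restricted to loops with no promoter, were chosen after seeing the data. The log2 change of all loops, near 0, became 0 with equal totals, 0.0163 in loops of at least 20 kb and -0.0323 as a median. The share of lower loops was 3.63% with a minimum of 100 read pairs, 17.8% at 1.5-fold and 9.83% in loops of at least 20 kb, and that of higher loops 1.61%, 17.6% and 5.31%. The gap between loops of 200 kb or more and those under 50 kb, 0.14, was 0.17 in loops absent from the H3K4me3 set and 0.28 with no promoter. The gap between the strongest and weakest loops, -0.48, was -0.47 in loops of at least 20 kb and -0.27 with strength read at 0 m. The gap between the GC ends, -0.83, was -1.02 in loops of at least 20 kb, -0.68 by 1 kb anchors and -0.71 with no promoter. The gap between loops with 2 and 0 promoters, -0.62, was -0.72 in loops of at least 20 kb, -0.61 with 5 kb bins and -0.77, -0.51, -0.46, -0.40 and -0.36 within GC classes. That of the androgen response element, 0.10, was 0.15 with no mismatch and -0.0178, 0.074, 0.0502, 0.0372 and 0.0463 within GC classes. Androgen-induced genes had a median of -0.0304 and were 0.29 above like loops, androgen-repressed genes had 0.86 in loops of at least 20 kb and a median of 0.38, and immediate early genes changed sign, to 0.0876 as a median and 0.0785 against like loops. Against like loops luminal factors became 0.14 and the nascent classes of 30 m, 4 h and 16 h 0.0435, 0.0147 and 0.0421. At 1.5-fold 39.9% of early gains were transient, and with 100 read pairs 11.5% were kept. Causes were not tested. With a median of 5 read pairs, most single loops cannot show a 2-fold difference.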
